A study of Mus musculus with 15 samples.

Results

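Lipins and the genes of triglyceride synthesis, lipid droplets and triglyceride breakdown were followed in liver RNA of mice that carry human alpha1-antitrypsin. The members were 10 genes, chosen by symbol for these roles: Lpin1, Lpin2, Dgat1, Dgat2, Gpam, Pnpla2, Plin2, Cidec, Mgll and Hsd17b13. They were represented by 19 of the 22690 probe sets on the array and by 10 of the 12393 genes tested. RNA from whole liver was hybridized to 15 Affymetrix mouse arrays, with 5 groups of 3 biological replicates, all described as male mice of 3 months. Z4 mice carried the mutant Z form of the human protein and drank no doxycycline, so that the transgene was expressed. Z1 mice carried the same transgene and were given 40 µg per mL of doxycycline in their water from conception, which keeps it off. M4 mice carried the wild type M form without doxycycline, and M1 mice carried it with the same doxycycline treatment. WT mice were littermates with no transgene and no doxycycline.

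Expression of the transgene is inducible and limited to hepatocytes, the main cell type of liver. The drug was given to every mouse with the transgene off and to no mouse with it on, so effects of doxycycline and of the transgene cannot be told apart in Z4 against Z1 or in M4 against M1. Strain, diet and feeding state are not given in the sources used here. In bulk tissue, fewer cells of a type and less RNA per cell cannot be told apart.

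Hepatocytes build triglyceride by adding fatty acids to glycerol 3-phosphate step by step. Gpam, a mitochondrial acyltransferase, adds the first one, and lipins later remove the phosphate from phosphatidic acid to give diacylglycerol, which Dgat1 and Dgat2 turn into triglyceride. Triglyceride is stored in lipid droplets coated with proteins such as Plin2 and is broken down again by lipases, beginning with Pnpla2, also known as ATGL, and ending with Mgll. Lpin1 is also known as a coactivator of fatty acid oxidation genes in liver, where fasting and glucocorticoids raise it.

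Arrays of the groups also differed outside these genes. The median signal of an array was 43.9 to 54.9 in Z4 and M4, 30.4 to 32.2 in Z1 and M1 and 42.3 to 44.9 in WT. The median of the poly-A controls, bacterial RNAs added before labelling, was 2 to 5.2 in Z4 and M4, 42.6 to 57.9 in Z1 and M1 and 33.8 to 37.6 in WT. The signal of the 18S ribosomal RNA control at its 5′ end was 1830 to 2680.7 in Z4 and M4, 154.4 to 568.1 in Z1 and M1 and 75 to 285.8 in WT. No source used here says whether the arrays of these groups were prepared together. These control differences cannot be told apart from any on-off change, or from any difference between a transgenic group and WT, below. Values were analysed as log2 of signal plus 16, with limma and Benjamini-Hochberg adjusted p-values, and a gene was called changed at an adjusted p under 0.05. On this scale the median of all genes was 0.25 in Z4 minus Z1 and 0.29 in M4 minus M1, and 0.05 and 0.10 after quantile normalization. The arrays M4 1 and M4 2 went against their male label, with Xist signals of 1149.2 and 226.0, against 32.6 on M4 3 and at most 74.3 on the other arrays. The Y-linked Eif2s3y read 0.4, 1.3 and 42.1 on M4 1, M4 2 and M4 3, against at least 105.3 on every array outside M4. Kdm5d, also Y-linked, read 12, 11.4 and 23.2, against at least 43.6, so M4 3 lay below the other groups as well. The fit of genes, each on the probe set used for it, was therefore repeated without these 2 arrays. What that changed in M4 results of the members, the further pathway genes and the regulators stands beside them. The fit of every probe set was not repeated in this way, so M4 results of other probe sets rest on all M4 arrays. Cell marker results in M4 are also given with all M4 arrays only.

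Liver identity was checked with 5 hepatocyte markers, whose summed signal was 33820.5 to 36087.9 in Z4, 37990.6 to 44408 in Z1, 33675.6 to 41464.5 in M4, 38877.2 to 43295.4 in M1 and 57553.1 to 67139 in WT. The 5 markers were all lower in Z4 and in M4 than in WT, and 4 of 5 were lower in Z1 and in M1 than in WT. Of all genes, 4.63% were called lower in Z4, 9.43% in M4, 20.1% in Z1 and 22.2% in M1, each minus WT. Of 4 fat cell markers, Adipoq was at most 15.4 and Lep at most 10.1 on any array, while Fabp4 reached 137.4 and Retn 72.2. Retn was called higher and Fabp4 lower in Z4 than in Z1 and in M4 than in M1. The summed signals of the 4 were 87 to 145.6 in Z4 and 132 to 167.4 in Z1. They were 71.6 to 98.3 in M4, 65.5 to 122.9 in M1 and 54.6 to 129.8 in WT. Of 5 Kupffer cell markers, 4 were higher in M4 than in M1, against 37.9% of all genes, and 0 were called in M4 minus WT. Their summed signals were 887.9 to 1076.9 in M4, 620.1 to 645.7 in M1 and 591.5 to 1027.4 in WT. The sums were 545.8 to 682.1 in Z4 and 477.3 to 726 in Z1. Of 4 stellate cell markers, 2 were higher in Z4 than in Z1 (Des and Reln), against 31.6% of all genes. In M4 minus M1 1 was higher (Des), against 37.9%. The sums were 515 to 578.6 in Z4, 348.4 to 368.1 in Z1, 361.1 to 647.7 in M4, 413.2 to 435 in M1 and 385.5 to 448.9 in WT. Of 4 pancreas markers, Cpa1 read 174.5 on array Z1 1 and 28.1 on Z1 2, and at most 5.2 on the other arrays. Prss2 read 285.9 and Clps 143.3 on Z1 1, against at most 66.1 and 40.5 on the other arrays. On Z1 2 they read 43.5 and 36.5, within the range of other groups. Cela1 read 621.7 on Z1 1 and 607.7 on Z1 2, within its range of 358.8 to 1357.8 over all arrays. Without Z1 1, Lpin1, Lpin2, Dgat1, Dgat2 and Pnpla2 still passed in Z4 minus Z1, while Mgll and Hsd17b13 did not. The part of these markers in the results below was not tested.

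With the transgene on and doxycycline absent, both lipins, both diacylglycerol acyltransferases and the lipase Pnpla2 were higher in liver, in both the Z line and the M line. In Z4 minus Z1, 6 of the 10 genes were higher (Lpin1, Lpin2, Dgat1, Dgat2, Pnpla2 and Mgll), 1 was lower (Hsd17b13) and 3 did not pass (Gpam, Plin2 and Cidec). Of all genes tested, 31.6% were called higher and 7.46% lower in that comparison. In M4 minus M1, 5 of 10 were higher (Lpin1, Lpin2, Dgat1, Dgat2 and Pnpla2) and 0 lower (also 0 at an unadjusted p under 0.05), against 37.9% higher and 12.4% lower among all genes. The median log2 change of the 10 genes was 0.70 in each line. No test set the counts of these genes against those shares. Shares of all genes at an unadjusted p under 0.05 were not counted, so counts at that threshold, here and below, have no background beside them. After quantile normalization the split of all calls moved to 1934 higher and 1277 lower in Z4 minus Z1, against 3913 and 925 before, and to 2900 higher and 1901 lower in M4 minus M1, against 4702 and 1537. The 7 calls in Z4 minus Z1 and the 5 in M4 minus M1 all held under it.

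**Figure D1:**
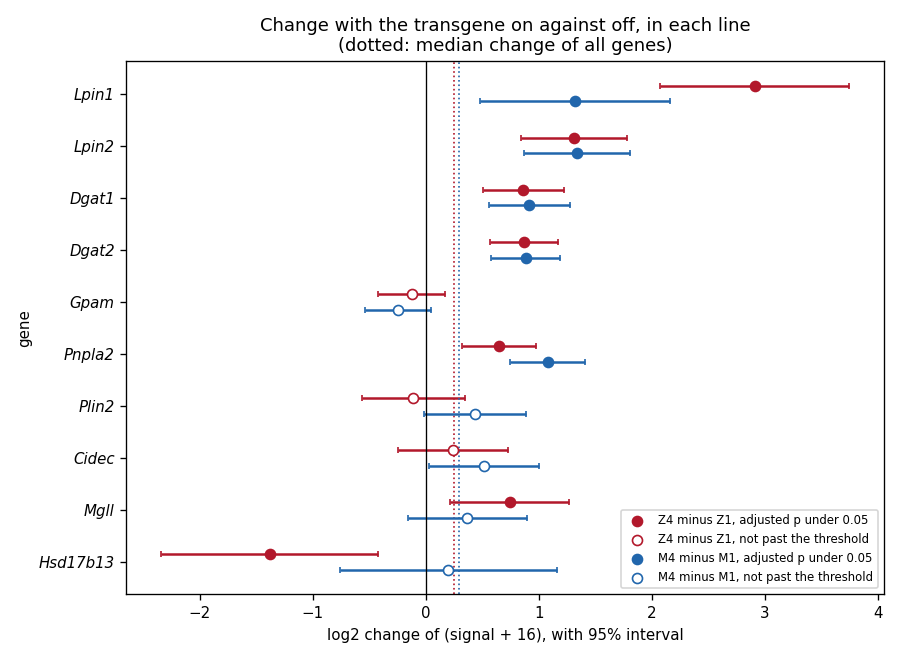
Log2 change of each of the 10 genes, Z4 minus Z1 and M4 minus M1, with 95% intervals; filled points passed an adjusted p of 0.05 and dotted lines mark the median of all genes (0.25 and 0.29). Lpin1 had the largest point estimate in the Z line (2.91), Hsd17b13 lay below 0 in the Z line (-1.38) and at 0.20 in the M line, and Gpam, Plin2 and Cidec have unfilled points in both lines.

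Lpin1, a phosphatidic acid phosphatase, gave signals of 1075.0, 409.8 and 1221.0 in Z4, against 76.0, 98.3 and 112.8 in Z1. Every Z4 array lay well above every Z1 array, and the second Z4 mouse stood far below the other 2 mice. The log2 change was 2.91 (SE 0.39, adjusted p = 9.99e-05), a 7.51-fold ratio of signal plus 16. Signals were 357.7, 438.6 and 308.0 in M4, against 165.2, 130.0 and 117.7 in M1. These groups did not overlap either, and the log2 change was 1.32 (SE 0.39, adjusted p = 0.0122). Without arrays M4 1 and 2 it was 1.09 and no longer passed (adjusted p = 0.164), and without M4 2 and 3 it was 1.29 (adjusted p = 0.103); both leave 1 M4 array, whose spread is assumed to be that of the other groups. The second probe set of Lpin1 followed the first over the 15 arrays (r = 0.96), with log2 changes of 2.62 in Z4 minus Z1 and 1.21 in M4 minus M1, both called in the fit of every probe set, in which 36.0% and 46.5% of all probe sets were called in these comparisons.

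Lpin2, the lipin that is prominent in liver, had signals of 1221.0, 757.7 and 1255.7 in Z4, against 307.8, 511.7 and 451.6 in Z1. In the M line they were 670.9, 728.4 and 612.2 in M4, against 243.2, 237.2 and 288.2 in M1. In each line the lowest mouse with the transgene on lay above the highest with it off. The log2 change was 1.31 in Z4 minus Z1 (SE 0.22, adjusted p = 4.49e-04) and 1.34 in M4 minus M1 (SE 0.22, adjusted p = 2.38e-04). The rise in the M line held without arrays M4 1 and 2 (1.21, adjusted p = 0.0125) and without M4 2 and 3 (1.34, adjusted p = 0.00809). The other probe sets of Lpin2 were also called higher in both lines, by 2.04 and 1.62 in Z4 minus Z1 and by 1.79 and 1.42 in M4 minus M1.

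Promoters of 3 of the 5 genes that were higher in both lines are shown so that the regions behind these transcripts can be read. They are RefSeq windows of GRCm38.p6, from 250 bases before to 50 after a transcript start, written 5′ to 3′ on the gene's strand. Such windows were found for 8 of the 10 genes, not for Dgat1 and Dgat2. Capitals mark matches to motifs searched on both strands. Lpin1 is read from chr12:16610917-16611216 (minus strand), Lpin2 at the first of its 3 listed starts from chr17:71183282-71183581 (plus strand) and Pnpla2 from chr7:141454938-141455237 (plus strand).
Lpin1: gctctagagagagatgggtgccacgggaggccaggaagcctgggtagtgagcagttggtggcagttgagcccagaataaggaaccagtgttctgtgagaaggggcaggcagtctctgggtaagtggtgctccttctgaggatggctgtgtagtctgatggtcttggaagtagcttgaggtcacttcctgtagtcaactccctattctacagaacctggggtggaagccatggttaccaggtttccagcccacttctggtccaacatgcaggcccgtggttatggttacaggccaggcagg
Lpin2: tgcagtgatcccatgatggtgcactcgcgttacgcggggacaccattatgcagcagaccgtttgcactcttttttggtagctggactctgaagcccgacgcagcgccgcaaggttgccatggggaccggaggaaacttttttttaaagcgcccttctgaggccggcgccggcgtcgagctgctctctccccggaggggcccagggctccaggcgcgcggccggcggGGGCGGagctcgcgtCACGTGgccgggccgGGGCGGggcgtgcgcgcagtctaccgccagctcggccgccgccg
Pnpla2: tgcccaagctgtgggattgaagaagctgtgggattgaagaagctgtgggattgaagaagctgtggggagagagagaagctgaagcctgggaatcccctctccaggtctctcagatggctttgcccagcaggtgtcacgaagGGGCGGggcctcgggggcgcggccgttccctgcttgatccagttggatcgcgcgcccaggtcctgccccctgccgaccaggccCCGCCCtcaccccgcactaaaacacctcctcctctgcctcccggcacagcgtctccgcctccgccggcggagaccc

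The Lpin2 window holds an E-box, CACGTG, at -9 to -4 from the start and GC boxes, GGGCGG, at -24 to -19 and 7 to 12. Pnpla2 has a GC box at -109 to -104 and another on the opposite strand, in capitals as its complement, at -26 to -21. Lpin1 had 0 matches to the 9 motifs in this window. Among windows not shown, the E-box also occurred in Plin2 at -4 to 2 and in Mgll at -44 to -39. Neither Plin2 nor Mgll was higher in both lines. Of all 32851 RefSeq promoter windows of that length, 7.15% held the E-box and 35.7% the GC box. The other motifs and their shares were the cyclic AMP element TGACGTCA (1.79%), exact consensus forms of the PPAR response element (0.0396%), the glucocorticoid response element (0.0487%) and the sterol regulatory element (0.0913%), the D-box TTATGTAA (0.938%), TATAAA (13.6%) and CCAAT (37.4%). None of these 7 occurred in the 3 windows shown. Matches describe the letters only, and no factor's binding was measured.

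Dgat2, which makes most triglyceride from newly synthesized fatty acids in liver, had signals of 2757.8, 2279.8 and 2778.7 in Z4, against 1264.2, 1376.0 and 1624.1 in Z1. They were 3017.4, 2874.3 and 2393.1 in M4, against 1599.3, 1408.7 and 1447.8 in M1. The on and off groups were separate in each line, with log2 changes of 0.87 in Z4 minus Z1 (SE 0.14, adjusted p = 3.61e-04) and 0.88 in M4 minus M1 (SE 0.14, adjusted p = 1.90e-04). Dgat1, the enzyme of the same reaction that also re-esterifies fatty acids from outside the cell, read 274.4, 234.9 and 243.6 in Z4, against 112.6, 131.0 and 149.7 in Z1. In M4 it read 216.7, 250 and 335.1, against 122.5, 144.2 and 129.9 in M1. Its on and off groups did not overlap, with log2 changes of 0.86 (SE 0.17, adjusted p = 0.00125) and 0.92 (SE 0.17, adjusted p = 5.37e-04). Without arrays M4 1 and 2 the M line changes were 0.68 for Dgat2 (adjusted p = 0.0141) and 1.25 for Dgat1 (adjusted p = 7.67e-04). Without M4 2 and 3 they were 1.02 for Dgat2 (adjusted p = 0.00196) and 0.65 for Dgat1 (adjusted p = 0.0257).

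Gpam, which commits fatty acids to glycerolipid synthesis, showed no called difference. Its signals were 1290.7, 1164.6 and 952.2 in Z4, against 1133.7, 1263.0 and 1303.9 in Z1. The groups overlapped, and the log2 change was -0.13 (95% interval -0.42 to 0.17, adjusted p = 0.499). In M4 it read 1226.7, 1126.2 and 1000.5, against 1341.9, 1227.2 and 1411.0 in M1. All 3 M4 arrays lay under the lowest M1 array, M4 1 by the least, but the log2 change of -0.25 did not pass (95% interval -0.54 to 0.05, adjusted p = 0.151). After quantile normalization the Z line value was 0.08 and that of the M line -0.09.

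**Figure D2:**
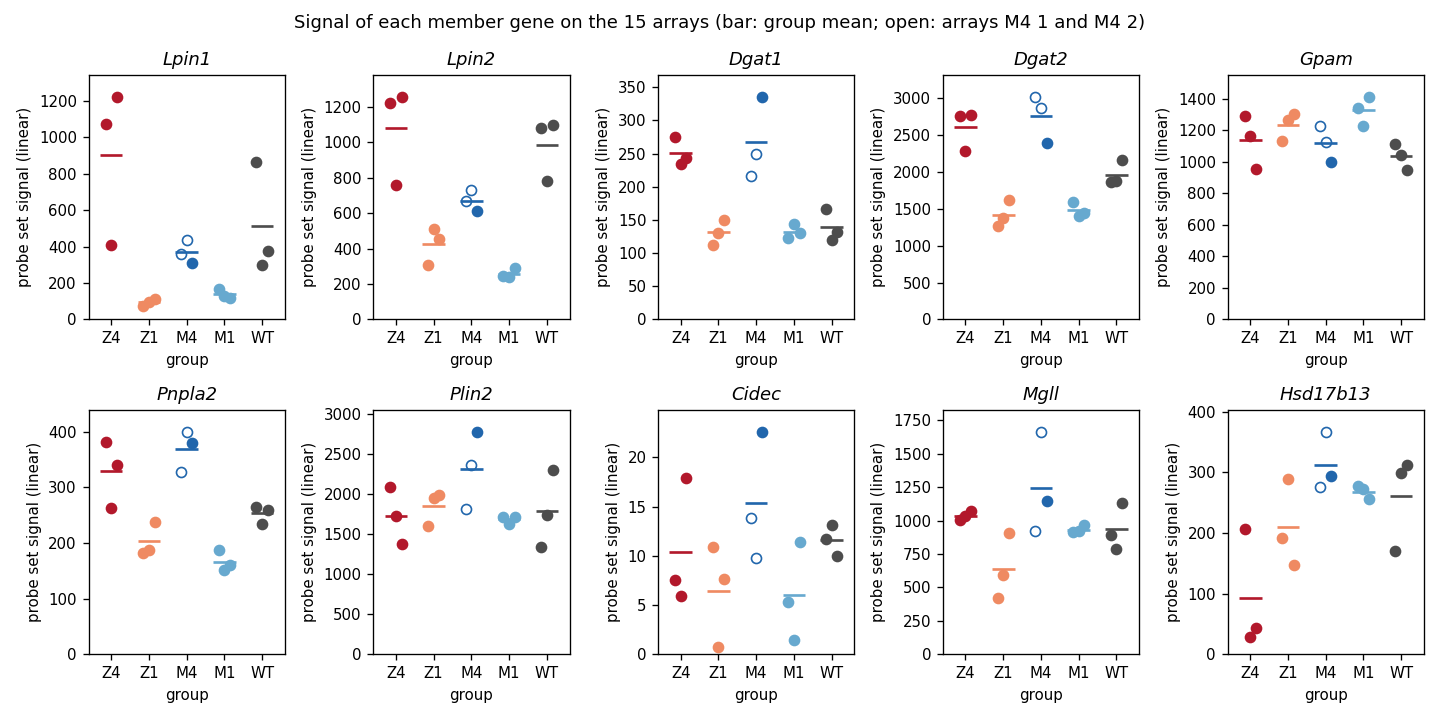
Signal of the probe set used for each of the 10 genes on the 15 arrays, in the order Z4, Z1, M4, M1 and WT, with 1 point per array, a bar at the group mean and open points for arrays M4 1 and M4 2. Lpin1 and Lpin2 were low in Z1 and M1, Dgat1 stood high in Z4 and M4 alone, and Hsd17b13 was low on Z4 2 and Z4 3 (28.4 and 43.0).

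Among droplet proteins, Plin2, the main droplet coat protein of hepatocytes, did not pass in either line. It had signals of 2091.0, 1717.4 and 1368.6 in Z4, against 1596.0, 1952.1 and 1984.8 in Z1. It had 1808.7, 2357.8 and 2772.4 in M4, against 1715.8, 1626.6 and 1708.2 in M1. The Z line groups overlapped (log2 change -0.11, 95% interval -0.56 to 0.34, adjusted p = 0.715), and the M line groups did not, with a log2 change of 0.43 (95% interval -0.02 to 0.89, adjusted p = 0.102). After quantile normalization Plin2 passed in M4 minus M1 (0.64, adjusted p = 0.0183). Cidec, a protein that enlarges droplets, lay near or below the constant of 16 on nearly every array, at 5.9 to 17.9 in Z4 and 0.7 to 10.9 in Z1. It read 9.8 to 22.6 in M4, 1.5 to 11.4 in M1 and 10 to 13.1 in WT. Differences in Cidec at this level were not detectable with confidence, at 0.24 in the Z line (adjusted p = 0.427) and 0.51 in the M line (adjusted p = 0.0732).

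Hsd17b13, a droplet-bound dehydrogenase of hepatocytes, was lower in Z4 than in Z1. Its signals were 206.9, 28.4 and 43.0 in Z4, against 191.6, 288.8 and 147.1 in Z1. The first Z4 mouse lay within the range of Z1, so the fall came from the other 2. The log2 change was -1.38 (SE 0.45, adjusted p = 0.0256), and it no longer passed without Z4 2 (-0.92, adjusted p = 0.121), without Z4 3 (-1.13, adjusted p = 0.104), without Z1 1 or without Z1 2, nor in a fit of these groups alone (adjusted p = 0.0888). In M4 the signals were 276.4, 366.6 and 294.6, against 276.8, 272.6 and 255.4 in M1, with a log2 change of 0.20 (95% interval -0.76 to 1.16, adjusted p = 0.735). The difference between the Z line and M line changes was -1.58 (SE 0.63, adjusted p = 0.260), short of the threshold that it met with Z4 1 left out (-2.29, adjusted p = 0.0346).

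Of the lipases, Pnpla2, which removes the first fatty acid from stored triglyceride, was higher with the transgene on in both lines. It had signals of 382.4, 262.8 and 341.1 in Z4, against 182.6, 188.4 and 237.8 in Z1. It had 328.4, 400.1 and 380.3 in M4, against 187.0, 152.0 and 161.2 in M1. No on array fell into the range of the off arrays, and the log2 changes were 0.65 (SE 0.15, adjusted p = 0.00468) and 1.08 (SE 0.15, adjusted p = 8.63e-05). The M line change of Pnpla2 was 1.12 without arrays M4 1 and 2 (adjusted p = 0.00215). Mgll, which releases the last fatty acid from monoacylglycerol, read 1002.3, 1035.1 and 1068.0 in Z4, against 424.1, 593.6 and 904.0 in Z1. The Z1 mice differed widely among themselves but all lay below Z4, with a log2 change of 0.74 (SE 0.25, adjusted p = 0.0276). This call was lost without any 1 of the Z4 arrays and without Z1 1 (0.49, adjusted p = 0.138) or Z1 2. In M4 Mgll read 924.4, 1663.0 and 1142.3, against 912.9, 918.1 and 964.7 in M1. Here the groups overlapped, and the log2 change of 0.37 did not pass (95% interval -0.16 to 0.90, adjusted p = 0.228).

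Z4 and M4, which both express a transgene and drank no doxycycline, differed in 1 of the 10 genes. In Z4 minus M4, 0 were called higher and 1 lower, against 3.66% and 1.50% of all genes. At an unadjusted p under 0.05 the counts were 2 and 1, with no share of all genes counted at that threshold. The lower one was Hsd17b13, with the 28.4, 43.0 and 206.9 of Z4 all under the lowest M4 value of 276.4 (log2 change -1.97, SE 0.45, adjusted p = 0.0273). That call was lost without arrays M4 1 and 2 (-1.89, adjusted p = 0.111), without M4 2 and 3 (-1.81, adjusted p = 0.360), without Z4 2, Z4 3, M4 2 or M4 3 singly, and in a fit of these groups alone (adjusted p = 0.240). Both lipins had point estimates above 0 in Z4 minus M4. Lpin1 stood at 1.13 (95% interval 0.29 to 1.97, adjusted p = 0.114) and passed only without Z4 2 (1.61, adjusted p = 0.0424). Lpin2 stood at 0.64 (95% interval 0.17 to 1.11, adjusted p = 0.110) with no overlap of arrays, and its brightest other probe set did pass in the fit of every probe set (0.95, adjusted p = 0.0242), where 4.47% of all probe sets were called. On the probe sets used for them, the other 7 genes lay between -0.42 for Plin2 and 0.02 for Gpam, and none passed.

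The size of the on-off change was compared between lines directly. None of the 10 genes passed this test in limma, and 0.613% of all genes did, while Lpin1 and Hsd17b13 had an unadjusted p under 0.05. The Z line change of Lpin1 minus that of the M line was 1.59 (SE 0.55, adjusted p = 0.199). For Lpin2, Dgat1 and Dgat2 the difference of changes was -0.03, -0.05 and -0.01 with 95% intervals of -0.69 to 0.64, -0.56 to 0.46 and -0.44 to 0.41. Between the lines with the transgene off, 0 of 10 genes passed in Z1 minus M1, and 0.137% of all genes did. At an unadjusted p under 0.05, Lpin2 was higher by 0.67 in Z1 (adjusted p = 0.278) and Mgll stood at -0.60 (adjusted p = 0.457).

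Against WT littermates, Lpin1 and, on the probe set used for it, Lpin2 were lower in both groups with the transgene off. Dgat1 was higher in both groups with the transgene on. Z1 and M1 differ from WT both in doxycycline and in carrying a transgene, and effects of these cannot be told apart here. In Z1 minus WT, 3 of 10 genes were lower (Lpin1, Lpin2 and Dgat2) and 0 higher (also 0 at an unadjusted p under 0.05), against 20.1% and 4.03% of all genes. In M1 minus WT, 3 of 10 were lower (Lpin1, Lpin2 and Pnpla2) and 0 higher (1 at an unadjusted p under 0.05, Gpam), against 22.2% and 3.92% of all genes. Hepatocyte marker sums and control signals also separated these groups from WT, as given above.

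Lpin1 read 866.6, 297.4 and 373.5 in WT, so that all 6 off arrays, at 76.0 to 165.2, lay below it. Its log2 change was -2.10 in Z1 minus WT (SE 0.39, adjusted p = 0.00233) and -1.64 in M1 minus WT (adjusted p = 0.00793). Against the same WT mice, Z4 gave 0.81 (95% interval -0.03 to 1.64, adjusted p = 0.204) and M4 gave -0.32 (95% interval -1.16 to 0.52, adjusted p = 0.594), with overlapping arrays. The Z4 value passed without Z4 2 (1.29, adjusted p = 0.0375) and without WT 1 (1.25, adjusted p = 0.0457). The second Lpin1 probe set gave 0.17 in Z4 minus WT (adjusted p = 0.828) and was called lower in M4 minus WT (-1.23, adjusted p = 0.0364).

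For Lpin2, WT signals were 1078.6, 779.1 and 1098.4 on the probe set used for the gene. Log2 changes were -1.20 in Z1 minus WT (adjusted p = 0.00212) and -1.87 in M1 minus WT (adjusted p = 1.41e-04), each with separate arrays. Z4 was not called against WT on this probe set (0.11, 95% interval -0.36 to 0.58, adjusted p = 0.804), and M4 stood at -0.53 (adjusted p = 0.0935). Its other probe sets disagreed with it, in the fit of every probe set, where 12.3% of all probe sets were called in Z4 minus WT, 23.0% in M4 minus WT, 21.4% in Z1 minus WT and 23.3% in M1 minus WT. On the second one, Z4 read 577.0, 343.6 and 482.5 and WT 179.7, 133.9 and 168.4, a called rise of 1.43 (adjusted p = 7.64e-04). On the third, Z4 read 336.6, 219.9 and 368.7 and WT 128.7, 114.6 and 147.7, a called rise of 1.12 (adjusted p = 0.00480). The same probe sets put Z1 at -0.61 (adjusted p = 0.0448) and -0.49 (adjusted p = 0.120) from WT, and M1 at -1.31 and -0.82 (adjusted p = 0.0154). They put M4 at 0.49 (adjusted p = 0.0965) and 0.61 (adjusted p = 0.0566) from WT, the opposite direction to the -0.53 of the probe set used for Lpin2. Whether Lpin2 was called higher in Z4 than in WT thus depends on the probe set, as does the direction of M4 minus WT, while its on-off rise was called on all 3.

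**Figure D3:**
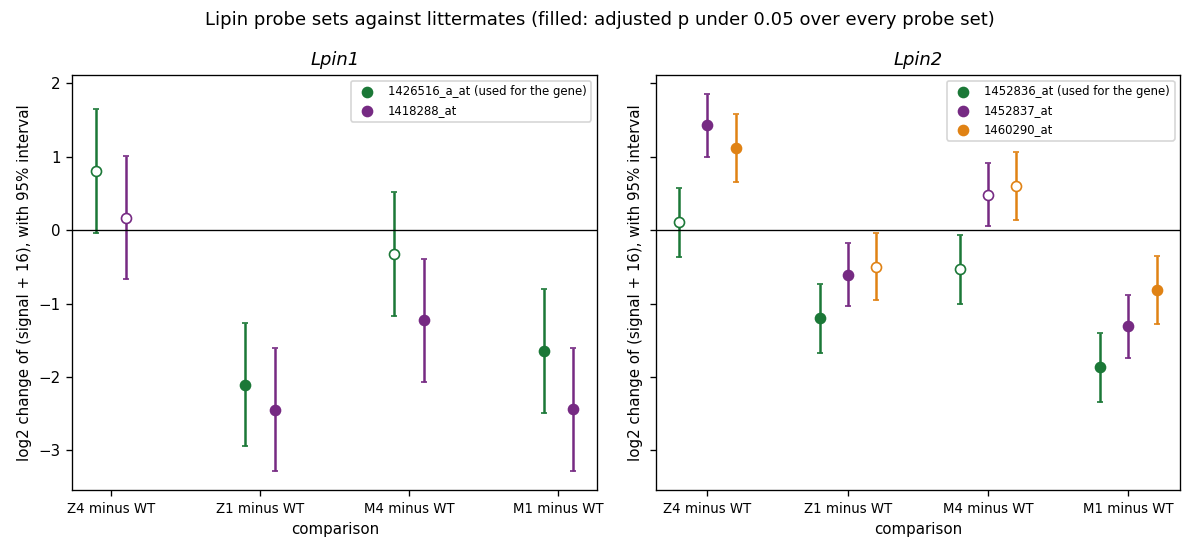
Log2 changes of Z4, Z1, M4 and M1, each minus WT, for the 2 probe sets of Lpin1 and the 3 of Lpin2, with 95% intervals; filled points passed an adjusted p of 0.05 over every probe set. For Lpin2 the probe set used for the gene put Z4 at 0.11, and the other 2 put it at 1.43 and 1.12.

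The acyltransferases and Pnpla2 had a different order. Dgat1 read 167.1, 119.3 and 131.2 in WT, close to the off groups, and was higher in Z4 (0.79, SE 0.17, adjusted p = 0.00835) and in M4 (0.86, SE 0.17, adjusted p = 0.00319). Z4 and M4 arrays, at 216.7 to 335.1, all lay above WT, and the Dgat1 changes of Z1 and M1 against WT were -0.07 and -0.06 (95% intervals -0.43 to 0.29 and -0.42 to 0.30). Dgat2 lay between on and off groups, at 1860.9, 1876.4 and 2161.9 in WT. It was higher in M4 (0.48, adjusted p = 0.0242) and lower in Z1 (-0.47, adjusted p = 0.0271), with 0.40 in Z4 (adjusted p = 0.0802) and -0.40 in M1 (adjusted p = 0.0504), which passed in 5 of 11 alternatives and with 4 of 15 single arrays left out. The Z4 value passed after quantile normalization (0.62, adjusted p = 0.0209), and the Z1 call was lost without Z1 1, Z1 2 or WT 3 (adjusted p = 0.107, 0.0779 and 0.0937) and in a fit of these groups alone (adjusted p = 0.0604). Pnpla2 read 265.8, 235.2 and 260.2 in WT and was higher in M4 (0.51, adjusted p = 0.0281) and lower in M1 (-0.56, adjusted p = 0.0164). Its values in Z4 and Z1 against WT were 0.34 (adjusted p = 0.173) and -0.31 (adjusted p = 0.164). The M1 call of Pnpla2 was lost without M1 2 (-0.51, adjusted p = 0.0633) or M1 3 (-0.54, adjusted p = 0.0511).

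In all, 1 of 10 genes was higher (Dgat1) and 1 lower (Hsd17b13) in Z4 minus WT, against 7.31% and 4.63% of all genes. In M4 minus WT 3 of 10 were higher (Dgat1, Dgat2 and Pnpla2) and 0 lower (1 at an unadjusted p under 0.05, Lpin2), against 14.4% and 9.43%. Hsd17b13 read 170.3, 298.1 and 312.1 in WT, and its fall in Z4 was -1.68 (SE 0.45, adjusted p = 0.0260), with the first Z4 mouse inside the WT range. This call of Hsd17b13 was lost without Z4 2 (-1.22, adjusted p = 0.106), Z4 3 (-1.43, adjusted p = 0.103), WT 2 or WT 3, and in a fit of these groups alone (adjusted p = 0.120). Without arrays M4 1 and 2, Dgat1 remained called in M4 minus WT (1.19, adjusted p = 0.00216), and Dgat2 (0.28, adjusted p = 0.344) and Pnpla2 (0.56, adjusted p = 0.105) did not. Without M4 2 and 3, Dgat1 stood at 0.60 (adjusted p = 0.0861), and in a fit of M4 and WT alone none of these 3 genes passed (adjusted p = 0.0524 for Dgat1, 0.0994 for Dgat2 and 0.0747 for Pnpla2). The Dgat2 call was also lost without M4 1, M4 2, WT 1 or WT 2 singly and the Pnpla2 call without M4 2, M4 3, WT 2 or WT 3. On the probe sets used for them, Gpam, Plin2, Cidec and Mgll did not pass against WT in any of the 4 transgenic groups, except that Gpam did in M1 with the constant 64 (0.34, adjusted p = 0.0381) and Mgll in Z1 without Z1 3 (-0.87, adjusted p = 0.0201). WT signals were 1114.1, 1041.1 and 946.9 for Gpam, 1337.6, 1733.2 and 2301.9 for Plin2 and 893.3, 788.1 and 1133.4 for Mgll.

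The order of group means also differed among the genes. Lpin1 averaged 902 ± 432 in Z4, 95.7 ± 18.5 in Z1, 368 ± 65.9 in M4, 138 ± 24.7 in M1 and 513 ± 309 in WT (SD, n = 3 each), so Z4, WT and M4 overlapped at the top. Lpin2 averaged 1078 ± 278 in Z4, 424 ± 105 in Z1, 671 ± 58.1 in M4, 256 ± 27.9 in M1 and 985 ± 179 in WT (SD, n = 3 each). Its neighbours Z4 and WT overlapped, and the steps to M4, Z1 and M1 had no overlapping arrays, although Z4 minus M4, M4 minus WT and Z1 minus M1 did not pass. This order of Lpin2 is that of the probe set used for it, and on the other 2 sets M4 came above WT, with means of 232 and 209 in M4 against 161 and 130 in WT, and Z4 did not overlap WT. Dgat2 averaged 2605 ± 282 in Z4, 1421 ± 184 in Z1, 2762 ± 327 in M4, 1485 ± 101 in M1 and 1966 ± 169 in WT (SD, n = 3 each).

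Beyond these 10, other genes of the pathway were called in both directions. Of 41 further genes of triglyceride metabolism and lipid droplets, 32 were measured, and in Z4 minus Z1 5 were higher, 5 lower and 22 did not pass. In M4 minus M1 9 were higher, 2 lower and 21 did not pass. Among all genes 31.6% were higher and 7.46% lower in Z4 minus Z1, and 37.9% and 12.4% in M4 minus M1. The median log2 changes of the 32 were 0.19 and 0.21, against 0.25 and 0.29 over all genes. After quantile normalization the counts were 4 higher and 2 lower in Z4 minus Z1 and 8 higher and 2 lower in M4 minus M1. Without arrays M4 2 and 3, which stand apart, the median of the 32 in M4 minus M1 was 0.19, against 0.29 over all genes. Without M4 1 and 2 it was 0.38, against 0.28. Both fits leave 1 M4 array, and the counts given for M4 did not all hold in them. Without M4 2 and 3, fewer of the 32, and of all genes, were called higher in M4 minus M1. In M4 minus WT this was so without either pair of arrays. Against WT, 5 were higher and 2 lower in M4 (14.4% and 9.43% of all genes), and 1 was higher and 3 lower in Z1 (4.03% and 20.1% of all genes). In M4 minus WT the median of the 32 was 0.26 without arrays M4 1 and 2 and -0.04 without M4 2 and 3. Those of all genes were 0.05 and 0.11. Single arrays left out also moved the counts of called genes, in the list and over all genes. Over all genes, calls lower in Z4 minus Z1 ran from 638 to 1149, and calls higher in M4 minus WT from 1169 to 1753. Without Z1 1, 2 were lower in Z4 minus Z1 and 1 in Z1 minus WT. Without any 1 array of Z4 or M1, or without Z1 2, 3 were lower in Z4 minus Z1. In M4 minus WT 2 were higher without M4 2 or WT 2 and 3 without WT 1, and in M4 minus M1 4 were lower without M4 3. Without M4 1, 2 were higher in Z1 minus WT.

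Agpat1, which adds the second fatty acid upstream of the lipins, averaged 83.4 ± 23.9 in Z4 against 22.9 ± 10.3 in Z1 (log2 change 1.36, adjusted p = 2.79e-04). In the M line Agpat1 averaged 94.6 ± 12.7 in M4 against 25.8 ± 7.46 in M1 (1.42, adjusted p = 1.18e-04), and it was lower than WT in Z1 (-1.23, adjusted p = 0.00157) and M1 (-1.12, adjusted p = 0.00224). WT averaged 73.5 ± 4.09 for Agpat1, below the means of both on groups and above those of both off groups. Mogat1, which makes diacylglycerol from monoacylglycerol, rose by 1.48 in Z4 minus Z1 (adjusted p = 0.00104). Hsd17b11, a droplet protein related to Hsd17b13, rose by 0.64 in Z4 minus Z1 (adjusted p = 0.00596), the opposite sign to Hsd17b13. Gpat4, an acyltransferase of the endoplasmic reticulum that shares the reaction of Gpam, was higher in Z4 minus WT (0.77, adjusted p = 0.0375), though not in a fit of these groups alone (adjusted p = 0.121).

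Acsl4, which activates long polyunsaturated fatty acids, was lower in both lines. It averaged 164 ± 38.9 in Z4 against 495 ± 46.5 in Z1 (-1.52, adjusted p = 0.0106) and 96.5 ± 99.8 in M4 against 390 ± 14.5 in M1 (-2.20, adjusted p = 6.74e-04). On M4 2 and M4 3 Acsl4 read 37.5 and 40.3, against 211.7 on M4 1, and without these 2 arrays the M4 minus M1 change was -0.83 (adjusted p = 0.0421). Acsl4 was also lower in M4 minus WT (-1.74, adjusted p = 0.00919), but not without arrays M4 2 and 3 (-0.37, adjusted p = 0.447). Pnpla8, a phospholipase of the family of Pnpla2, read 445.7, 87.6 and 69.6 in M4, against 729.2, 752.2 and 726.5 in M1 (-2.23, adjusted p = 7.61e-04). M4 2 and 3 were thus far lower than M4 1, and without them the M4 minus M1 change of Pnpla8 was -0.70 (adjusted p = 0.00712). Its differences in Z4 minus M4 (1.90, adjusted p = 0.0267) and in M4 minus WT (-2.16, adjusted p = 0.00342) came to 0.37 (adjusted p = 0.490) and -0.63 (adjusted p = 0.0361) without those arrays. Lipe, the hormone-sensitive lipase that acts between Pnpla2 and Mgll, rose by 0.74 in M4 minus M1 (adjusted p = 0.00145), and by 0.43 without M4 2 and 3, where it did not pass (adjusted p = 0.0969). Lipa, the lysosomal acid lipase, was higher in Z1 than in WT (0.74, adjusted p = 0.00127), and Bscl2, the droplet assembly protein seipin, was lower in M1 than in WT (-0.69, adjusted p = 0.0178).

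**Figure D4:**
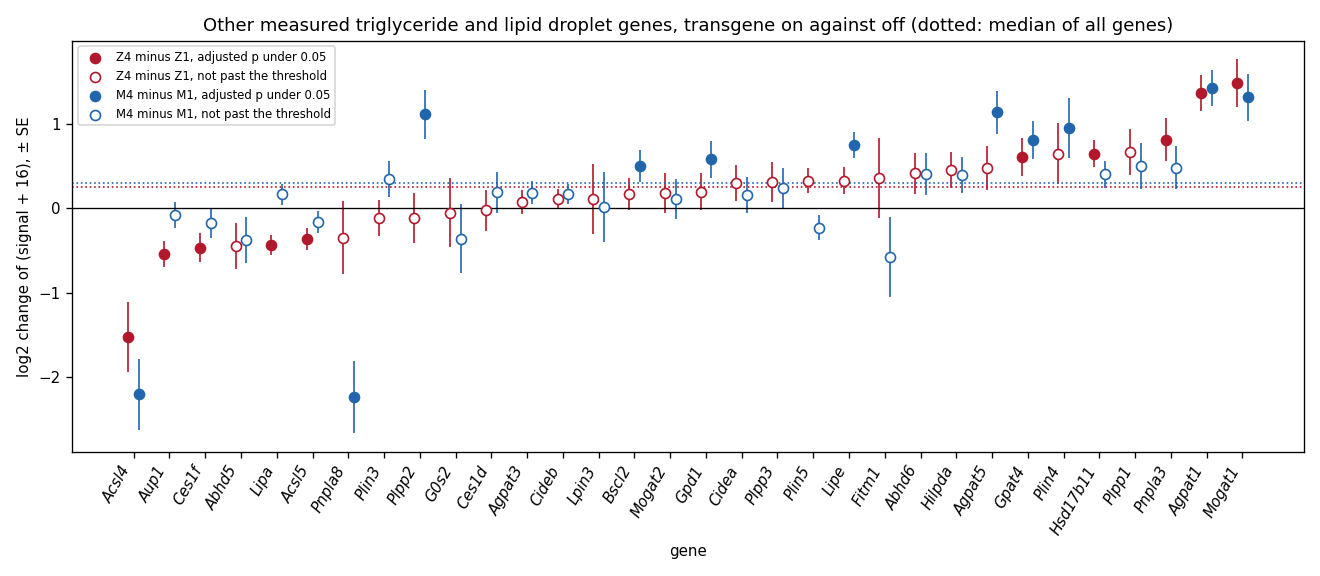
Log2 change ± SE of the 32 further triglyceride and lipid droplet genes, Z4 minus Z1 and M4 minus M1; filled points passed an adjusted p of 0.05 and dotted lines mark the medians of all genes. Agpat1 lay at 1.36 and 1.42, Acsl4 at -1.52 and -2.20, and Pnpla8 at -2.23 in the M line.

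Of 14 regulators of these genes, 13 were measured, and 6 were higher and 1 lower in Z4 minus Z1, with 6 higher and 2 lower in M4 minus M1. The shares over all genes were the same 31.6% and 7.46%, and 37.9% and 12.4%, and the median log2 changes of the 13 were 0.44 and 0.47, against 0.25 and 0.29 over all genes. Without arrays M4 1 and 2 the median of the 13 in M4 minus M1 was 0.53, and without M4 2 and 3 it was 0.20. Those of all genes were 0.28 and 0.29. Each of these fits leaves 1 M4 array, and in each fewer of the 13, and of all genes, were called higher. Ppara, the nuclear receptor of the fasted liver and a partner of Lpin1, averaged 1042 ± 135 in Z4 against 555 ± 104 in Z1 (0.90, adjusted p = 0.00136) and 465 ± 79.1 in WT (1.14, adjusted p = 0.00150). Ppara was also higher in M4 than in WT (0.87, adjusted p = 0.00389). The coactivator gene Ppargc1b rose by 0.92 in Z4 minus Z1 (adjusted p = 0.00280) and by 0.78 in M4 minus M1 (adjusted p = 0.00549). It was lower in M1 than in WT (-1.11, adjusted p = 0.00178), as was its relative Ppargc1a (-0.79, adjusted p = 0.00864), which rose in M4 minus M1 (0.87, adjusted p = 0.00190). Srebf1, the main activator of fatty acid synthesis genes, rose in Z4 minus Z1 (0.87, adjusted p = 0.00710) and was lower in Z1 than in WT (-0.66, adjusted p = 0.0442). That Srebf1 call was lost without arrays M4 1 and 2 or M4 2 and 3 (adjusted p = 0.0554 each) and in a fit of these groups alone (adjusted p = 0.133), and WT 1 read 2042.2, against 1048.7 and 1055.3 on WT 2 and WT 3. Foxo1, which insulin holds in check, rose by 0.64 in Z4 minus Z1 (adjusted p = 0.00829).

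Cebpa, a hepatocyte transcription factor, rose in M4 minus M1 (0.66, adjusted p = 0.00209) and was higher in M4 than in WT (0.69, adjusted p = 0.00539). Nr1h3, the oxysterol receptor LXR alpha, was lower in Z4 than in WT (-0.50, adjusted p = 0.0459), but not in a fit of these groups alone (adjusted p = 0.0608). Nr3c1, the glucocorticoid receptor, read 251.9, 67.9 and 60.1 in M4, against 286.5, 329.8 and 332.3 in M1 (-1.47, adjusted p = 0.00272), and was higher in Z4 than in M4 (1.38, adjusted p = 0.0345). Without arrays M4 2 and 3 these Nr3c1 changes were -0.31 (adjusted p = 0.233) and 0.21 (adjusted p = 0.806). Without arrays M4 1 and 2, Ppargc1a (0.53, adjusted p = 0.0681) and Ppargc1b (0.69, adjusted p = 0.0906) did not pass in M4 minus M1, and Ppara stood at 0.67 in M4 minus WT (adjusted p = 0.0822).

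Across the 15 arrays, log2 signals of Dgat2 and Pnpla2 followed each other most closely among the 10 genes (r = 0.93), then Lpin1 and Lpin2 (0.87) and Dgat1 and Pnpla2 (0.85). Gpam ran against them, with r between -0.60 with Lpin2 and -0.27 with Dgat1 among these 5. Hsd17b13 had r of -0.36 with Lpin1 and -0.13 with Pnpla2. These values are descriptions over arrays that share the on-off split and the array differences given above. Of all genes tested, those most like Lpin1 were Pim3 (r = 0.94), Pdxk (0.94) and Cyp46a1 (0.92), and those most like Lpin2 were Pvt1 (0.96), Ribc1 (0.96) and Rrm2 (0.94). For Dgat1 they were Glp1r (0.97), Ninj1 (0.95) and Mtx1 (0.95), for Dgat2 Abhd16a (0.98), Sar1a (0.98) and Tecpr1 (0.97), and for Pnpla2 Fgfrl1, Ccdc88c and Tspan13 (0.96 each). Lower likeness was found for Gpam with Baat (0.86), Pkhd1 (0.80) and Wnt5a (0.79), for Plin2 with Dctn5 (0.87), Gfm2 (0.84) and Arfgap1 (0.82) and for Hsd17b13 with Atp5g1 (0.88), Abcf3 (0.86) and Ttc4 (0.82). Cidec, whose signals lay near the floor, was most like Tspan10 (0.87), Nxt1 (0.85) and Aar2 (0.83), and Mgll was most like Ptp4a3 (0.91), Tnfaip8l1 (0.90) and Thap11 (0.88).

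Probe sets of 1 gene did not always agree. The 2 of Dgat2 followed each other (r = 0.94), and the second was called higher in Z4 minus Z1 (0.80) and M4 minus M1 (1.14). Those of Gpam (r = 0.54) and Pnpla2 (r = 0.60) were less alike, with the second set of Pnpla2 at 18.97 ± 4.57 in Z4 and 4.43 ± 3.11 in Z1, around or below the constant of 16. In the fit of every probe set, that set was called higher in Z4 minus Z1 (0.78, adjusted p = 0.0495). It did not pass in M4 minus M1 (0.49, adjusted p = 0.184), where arrays overlapped. The second set of Gpam stood at -0.69 in Z4 minus M4, with no overlap of arrays (adjusted p = 0.0765). It gave -0.48 in Z4 minus Z1 (adjusted p = 0.0905) and 0.20 in M4 minus M1 (adjusted p = 0.458), so none of these passed. The 4 sets of Mgll had r between 0.16 and 0.93, and in Z4 minus Z1 one other was called (0.78, adjusted p = 0.0404) while another gave 0.38 (adjusted p = 0.198). Against WT, 1 of these other sets of Mgll was called lower in Z1 (-0.78, adjusted p = 0.0218) and another was called higher in M4 (0.91, adjusted p = 0.0291). Counted over all 19 probe sets, 12 were higher and 1 lower in Z4 minus Z1, and 9 were higher and 0 lower in M4 minus M1, with 36.0% and 46.5% of all probe sets called in either direction.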

How the data were processed

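Liver RNA was measured on 15 arrays, 3 per group, and the labels gave each array's group and number. The authors deposited linear probe set intensity values, from 0 to 22995.4. Per the submitters' processing notes RMA was used, with no version. The values hold zeros and have a trimmed mean of 149.973 to 149.978 on every array, which RMA output does not, so they were taken as scaled linear signals of unknown scaling.

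The constant 16 was added and log2 taken, which understates changes of dim genes. Of 22690 probe sets, 64 were controls and 20380 had 1 gene in the platform's annotation, against which 20351 symbols matched RefSeq. Each gene was represented by its probe set with the highest mean log2 value. All arrays and 12393 genes entered 1 linear model of group means in limma 3.58.1 in R 4.3.3, with 10 residual degrees of freedom. A second fit held 22626 probe sets. Tests were two-sided over 9 contrasts, with Benjamini-Hochberg adjustment within each contrast, and the number of arrays limits the precision. Fits were tested on simulated data.

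The members, lists, tests and alternatives were chosen with earlier results of these data known. All 10 members were named, then the called genes of the other lists with the 4 smallest adjusted p in the on-off contrasts, Z4 minus M4 and the interaction, and with the 2 smallest elsewhere, and the 3 genes most like each member by Pearson correlation. 

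Equal replicate numbers did not pair the arrays: 30 pairs had correlations of -0.17 to 0.07, none above 0.1. No 2 arrays held identical values. Alternatives were a fit restricted to the groups compared, a filter on dim genes, every probe set, a robust spread with intensity trend, quantile normalization, array weights, a replicate block, constants of 1 and 64, arrays M4 1 and 2 or M4 2 and 3 left out, and each array left out in turn.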

Additional observations from a re-analysis of the deposited data

How the results depend on the processing

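On the probe set used for each gene, the rises of Lpin2, Dgat1, Dgat2 and Pnpla2 in both lines and of Lpin1 in the Z line passed under every alternative run. Over all alternatives other than single arrays left out, 948 of 981 values kept their side of the threshold, 20 lost it, 13 gained it and 0 called values turned sign, while 22 changes that passed in neither setting did, the largest at 0.21. With single arrays left out the counts were 1309 of 1350, 30, 11, 0 and 42. The cause of these losses and gains was not tested.

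Members called moved as follows. In a fit of only the groups compared, 0 were lower in Z4 minus Z1, Z4 minus M4 and Z4 minus WT, and 0 were higher in M4 minus WT. All genes gave 1035, 12 and 380 lower in this fit, against 925, 186 and 574 in the main fit. They gave 595 higher in M4 minus WT, against 1789. With the constant 1, 0 members were lower in Z4 minus M4 and Z4 minus WT and 1 was higher in M4 minus WT. All genes gave 54 and 419 lower and 1144 higher there. Without M4 1 and 2 or without M4 2 and 3, Hsd17b13 lost its call in Z4 minus M4, and Dgat2 and Pnpla2 lost theirs in M4 minus WT. Dgat1 lost its call in M4 minus WT without M4 2 and 3. Quantile normalization, intensity trend with robust spread and the constant 64 each gave 2 higher in Z4 minus WT, and the constant 64 gave 1 higher in M1 minus WT. All genes gave 559, 936 and 1158 higher in Z4 minus WT in these settings, against 906. They gave 562 higher in M1 minus WT with the constant 64, against 486. In M4 minus M1, 6 were higher after quantile normalization and 7 with array weights, where all genes gave 2900 and 5332 higher, against 4702 in the main fit. Lpin1 lost its call there without M4 1 and 2 or without M4 2 and 3. In Z1 minus WT 2 were lower in a fit of only the groups compared, with 2032 of all genes, against 2496. In M1 minus WT 4 were lower with intensity trend and robust spread, array weights and the constant 64. All genes gave 2726, 3056 and 2468 lower in these settings, against 2757. Leaving out single arrays gave 5 to 6 higher and 0 to 1 lower in Z4 minus Z1, 5 to 6 higher in M4 minus M1, 0 to 1 higher and 0 to 1 lower in Z4 minus M4, 1 to 2 higher and 0 to 1 lower in Z4 minus WT, 1 to 3 higher in M4 minus WT, 2 to 4 lower in Z1 minus WT and in M1 minus WT, and 0 to 1 lower for the difference of changes.

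Counts over all genes ranged, higher and lower, from 1934 to 6314 and 804 to 1841 in Z4 minus Z1 and from 6 to 1164 and 12 to 694 in Z4 minus M4, where they were 453 and 186. With single arrays left out they ranged from 3091 to 4167 and 638 to 1149 in Z4 minus Z1. In M4 minus M1 those ranges were 4072 to 4750 and 1263 to 1691. In Z4 minus M4 they were 36 to 1132 and 40 to 545. In Z4 minus WT they were 546 to 1151 and 386 to 722. Calls higher in M4 minus WT ran from 1169 to 1753. Calls lower ran from 1736 to 2750 in Z1 minus WT and from 2015 to 2993 in M1 minus WT. For the difference of changes, calls lower ran from 2 to 244. The 40th percentile filter kept 9 of the 10 members and left out Cidec. Replicate number as a block (replicate block) changed the call of 1 member, Cidec in M4 minus M1 (0.51, adjusted p = 0.0339), and took the difference of changes over all genes to 4 higher and 7 lower, against 38 each.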
